A study of Mus musculus with 6 samples.

Results

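The spectrin and ankyrin membrane skeleton was followed through 9 genes: the spectrin chains Sptan1, Sptb and Sptbn1, the ankyrins Ank1, Ank2 and Ank3, the FERM-domain genes Epb41 and Epb41l1, and the adducin Add1. Members were taken as the array probes annotated with these symbols, and 6 of the 9 genes were measured, by 9 probes, among 16504 named genes in all. For Sptan1, Epb41 and Epb41l1 the annotation used here listed no probe, so the alpha chain of spectrin and the Epb41 and Epb41l1 linkers are not analysed here. RNA of laser-captured mature and elongating lens fiber cells of GFP transgenic mice (strain TgN(GFPU)5Nagy) was set against each other on 6 two-colour arrays, each carrying both populations. Mature fibers were in channel 1 on arrays lens249, lens487 and lens493 and in channel 2 on lens250, lens488 and lens455. Both populations carried the transgene, and no other genotype or treatment was labelled. For lens249 and lens250 the labels also give postnatal day 5, pooled littermate lenses and at least 200 cells, and they do not say which arrays came from separate animals, so p-values measure only the spread between arrays, which may be technical.

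Spectrin is a long flexible tetramer of alpha and beta chains that lines the inner face of the plasma membrane and is cross-linked by short actin filaments. Ankyrins tie beta spectrin to membrane proteins such as cell adhesion molecules, pumps and channels, while the Epb41 family and adducin hold spectrin to actin at the network's junctions. In the mouse lens this network supports the hexagonal shape and regular packing of fiber cells, and ankyrin-B, the Ank2 product, is needed for their membrane organisation.

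Each value is a log ratio of mature and elongating fibers whose sign was turned on the arrays with elongating fibers in channel 1 and which was centred on the array's median. No source used here gives the log base or says which channel was the numerator. With channel 1 as numerator a positive value would mean more transcript in mature fibers, and with channel 2 it would mean less. To fix the 2 sides without naming a direction, the negative side is that of Cdh2, which encodes N-cadherin (-1.78 ± 0.54, SD, n = 6), and the positive side that of Dnase2b, the nuclease of lens DNA degradation (1.81 ± 0.30, n = 6). Ratios give no level of a transcript, so the identity of the captured cells could not be checked against marker levels. In captured tissue, fewer cells of a type and less RNA per cell cannot be told apart. After turning, arrays of opposite orientation correlated across features with r from 0.038 to 0.61, and arrays of the same orientation with r from 0.12 to 0.34, as a description across genes.

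None of the 6 measured members passed the test for a difference between mature and elongating fibers (limma, Benjamini-Hochberg adjusted over all 19624 features, threshold 0.05), where 1.73% of all features did. Over all features 266 passed on the negative side and 73 on the positive side. Sptbn1, the beta chain of non-erythroid spectrin, had the largest difference of the 6 and lay on the negative side at -0.51 ± 0.43 (SD, n = 6). The other 5 members lay on the positive side, between 0.05 for Add1 and 0.40 for Ank1. At an unadjusted p under 0.05 Sptbn1 alone was called, 1 of 6. Over all features the share was 16.2%, both sides counted, with 1755 of 19624 below 0 and 1428 above. Likewise 1 of 6 members, Sptbn1, had one sign on all 6 arrays, against 9.17% of all features. With 6 members these counts are near the background, and the median of the members' differences was 0.10 against 0.003 over all features.

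RefSeq lists 2 promoter windows for Sptbn1 and 1 for Sptb, the beta chain of red cell spectrin. They are shown because Sptbn1 had the lowest p among the members, and Sptb is its paralogue with a mean on the other side of 0. Neither difference passed the test. Each window holds 300 bases around a transcription start of build GRCm38.p6, on the minus strand, written 5′ to 3′. Capitals mark matches on either strand. The motifs searched were the GC box, GGGCGG, the TATA box, TATAAA, and the half-site of Maf factors, TGCTGA. The GATA site was searched as NGATAA with A or T as its first base. No match overlapped another.
Sptbn1, upstream start, chr11:30219723-30220022: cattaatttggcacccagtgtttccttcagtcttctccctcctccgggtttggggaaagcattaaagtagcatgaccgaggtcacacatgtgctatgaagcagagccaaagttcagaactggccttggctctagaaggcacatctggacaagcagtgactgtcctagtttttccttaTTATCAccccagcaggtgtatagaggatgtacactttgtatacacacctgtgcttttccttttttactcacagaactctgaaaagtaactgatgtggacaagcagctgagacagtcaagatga
Sptbn1, downstream start, chr11:30198208-30198507: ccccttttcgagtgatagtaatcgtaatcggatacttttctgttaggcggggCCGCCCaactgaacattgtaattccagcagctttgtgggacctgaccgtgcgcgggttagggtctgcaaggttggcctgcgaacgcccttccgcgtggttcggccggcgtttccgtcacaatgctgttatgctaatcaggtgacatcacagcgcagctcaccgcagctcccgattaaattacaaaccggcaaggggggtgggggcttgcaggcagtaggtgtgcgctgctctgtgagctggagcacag
Sptb, chr12:76710498-76710797: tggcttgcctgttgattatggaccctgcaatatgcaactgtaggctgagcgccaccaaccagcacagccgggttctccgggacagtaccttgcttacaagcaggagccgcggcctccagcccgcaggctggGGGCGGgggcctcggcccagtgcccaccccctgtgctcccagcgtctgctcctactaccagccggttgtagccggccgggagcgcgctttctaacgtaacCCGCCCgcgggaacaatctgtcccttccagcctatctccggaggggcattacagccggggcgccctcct

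The upstream window of Sptbn1 held 2 CpG dinucleotides at 45.3% G and C, and the downstream window 21 at 57.0%. The Sptb window held 21 CpG at 65.7% G and C. Over all 32851 windows of this length the median was 7 CpG at 52.7%. The downstream Sptbn1 window held 1 GC box and the Sptb window 2, a motif found in 35.7% of all windows, and the upstream Sptbn1 window held 1 GATA site, found in 18.6%. The TATA box (13.6% of windows) and the Maf half-site (19.5%) were in none of these 3 windows. The arrays do not tell which start was used, and the letters are given as a description.

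Among the spectrin chains, Sptbn1 had -0.30 on lens249, -0.999 on lens487 and -0.17 on lens493, the arrays with mature fibers in channel 1. With elongating fibers in channel 1 it had -0.49 on lens250, -1.05 on lens488 and -0.033 on lens455. All 6 arrays thus lay below 0, and both orientations covered the same range, with means of -0.49 and -0.53. The fitted difference was -0.51 (95% interval -0.88 to -0.13; unadjusted p = 0.0148 and adjusted p = 0.18 in limma). Read as a fold this would be 1.42 if the values are log2, 1.66 if they are natural logs and 3.22 if they are log10. By size, 3.92% of all features had a larger difference.

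Array by array, the Sptbn1 ratio was lowest on lens487 and lens488, where only 1.27% and 0.948% of features lay as low or lower. On lens249 and lens250 these shares were 12.8% and 5.01%, and on lens493 and lens455 they were 28.7% and 45.8%. Averaged over arrays of neighbouring title numbers, Sptbn1 had -0.40 on lens249 with lens250, -1.02 on lens487 with lens488, and -0.10 on the pair left over, lens455 with lens493. What arrays of neighbouring numbers share is not stated in the labels, and these means were chosen after the values were seen. Tested on these 3 averaged pairs, Sptbn1 had an unadjusted p of 0.061 (adjusted p = 0.43 in limma), and 0 of 6 members had an unadjusted p under 0.05. Of all 19624 features 2395 had an unadjusted p under 0.05 on these pairs, so 0 of 6 is near the background.

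**Figure D1:**
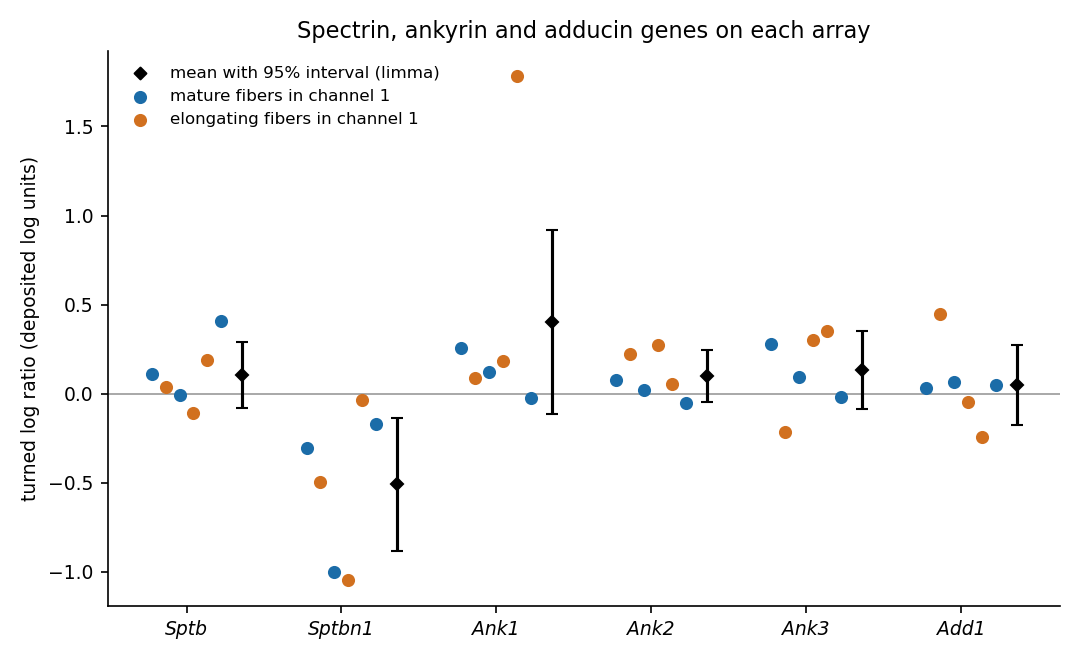
Turned, centred log ratio (deposited log units, vertical axis) of the 6 measured members on each of the 6 arrays; each point is 1 array, coloured by the population in channel 1, and the diamond is the mean with its 95% interval from limma. Sptbn1 lies below 0 on all 6 arrays, while Ank1 has 1 array at 1.78 and the others between -0.022 and 0.26.

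Sptbn1 was measured by 2 probes, and its value depended on which was read. Probe 17890, annotated to a RefSeq mRNA, had -0.67, -1.56 and -0.53 on lens249, lens487 and lens493, and -0.53, -1.41 and -0.082 on lens250, lens488 and lens455. Probe 4611, annotated to a cDNA clone, had 0.062, -0.44 and 0.19 on the first 3 of these arrays and -0.46, -0.68 and 0.016 on the others. Probe 17890 was below 0 on all 6 arrays, and probe 4611 on 3. Their means were -0.80 ± 0.57 (SD, n = 6; adjusted p = 0.12 in limma with each probe on its own) and -0.22 ± 0.35 (adjusted p = 0.44).

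Probe 17890 lay below probe 4611 on each of the 6 arrays, by 0.58 on average with a range of 0.069 to 1.12. By an exact sign-flip permutation test, two-sided and chosen after the values were seen, p was 0.0312, the smallest that 6 arrays allow, and 0.094 adjusted over the 3 genes with 2 probes. That test takes the 6 arrays as independent, which the labels do not state. Which transcripts each probe detects is not given in the sources used here, so whether they read different Sptbn1 transcripts was not tested.

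Sptb, whose product pairs with the erythroid alpha chain under the red cell membrane and is also made in other tissues, had values from -0.11 to 0.41 with a median of 0.073. It was above 0 on 4 of 6 arrays, and its difference of 0.10 ± 0.18 did not pass (95% interval -0.080 to 0.29; adjusted p = 0.58 in limma). Without lens493 it was 0.045 and without lens455 0.067, and it was 0.17 with mature fibers in channel 1 alone and 0.038 with elongating fibers there. Probe 20615 of Sptb was above 0 on all 6 arrays in a narrow range, 0.024 to 0.16, with a mean of 0.092 ± 0.052. Probe 4847 ranged from -0.24 on lens488 to 0.78 on lens493, with a mean of 0.12 ± 0.37. The probes differed by 0.025 on average and in either direction between arrays (exact permutation p = 0.91, n = 6 arrays).

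**Figure D2:**
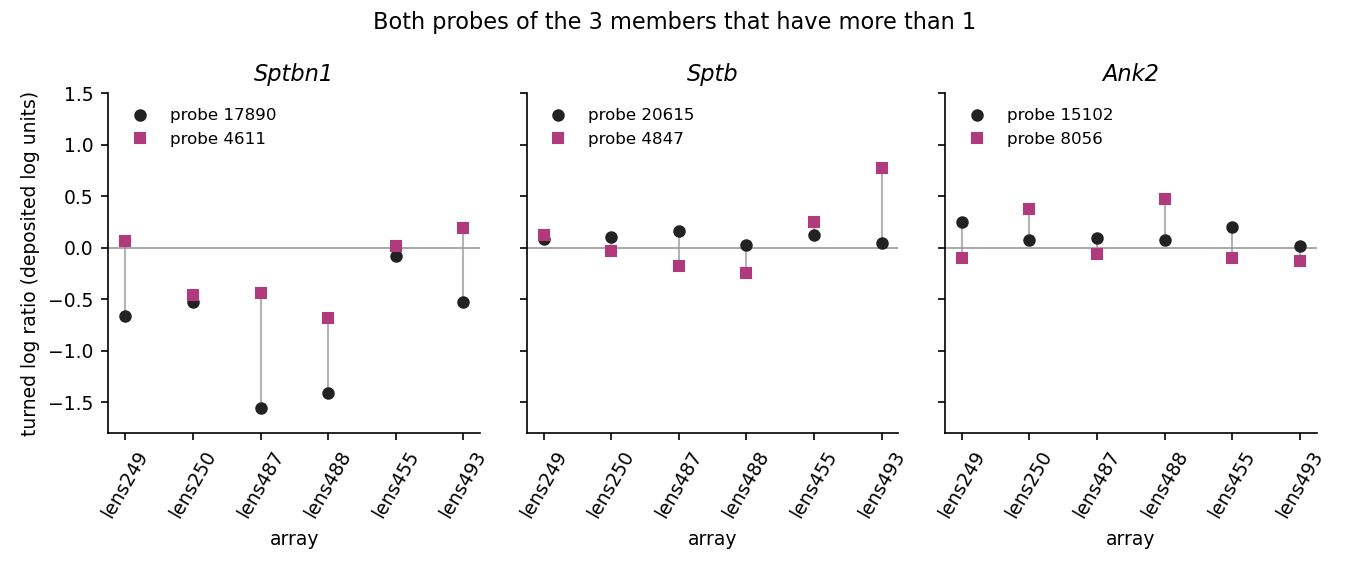
Turned log ratio (deposited log units, vertical axis) of both probes of Sptbn1, Sptb and Ank2 on the 6 arrays (horizontal axis); a grey bar joins the probes of one gene on one array. Probe 17890 of Sptbn1 lies below probe 4611 on each array, whereas in Sptb and Ank2 the order of the probes changes from array to array.

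Among the ankyrins, Ank1, the ankyrin of red cells that is also made in muscle and neurons, had the largest mean, 0.40 ± 0.68 (SD, n = 6). It had 0.26 on lens249, 0.12 on lens487 and -0.022 on lens493, and 0.089 on lens250, 0.18 on lens488 and 1.78 on lens455. A single array thus stood far above the rest: on lens455 only 0.122% of features lay as high or higher. The difference did not pass (95% interval -0.11 to 0.92; adjusted p = 0.43 in limma), and without lens455 it was 0.13 (adjusted p = 0.42). Ank1 was read by 1 probe, so no second probe bears on the value of lens455.

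Ank2 encodes ankyrin-B, the ankyrin studied in lens fiber architecture. Its values lay between -0.054 and 0.28 with a median of 0.065, and 5 of 6 were above 0. The difference of 0.10 ± 0.13 did not pass, and its 95% interval of -0.044 to 0.24 was the narrowest of the 6 members (adjusted p = 0.49 in limma). Probe 15102 was above 0 on all 6 arrays, from 0.021 to 0.25, while probe 8056 was above 0 on 2, lens250 at 0.37 and lens488 at 0.48. These are arrays with elongating fibers in channel 1, and the dye term of probe 8056 was -0.17 (unadjusted p = 0.089, adjusted p = 0.47 in limma).

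Ank3 encodes ankyrin-G, found at lateral membranes of epithelial cells and at the axon initial segment. It ranged from -0.22 on lens250 to 0.35 on lens455 with a median of 0.19 and was above 0 on 4 of 6 arrays. The difference of 0.13 ± 0.22 did not pass (95% interval -0.088 to 0.35; adjusted p = 0.56 in limma). Without lens250 it was 0.22 (adjusted p = 0.25), and without lens455 it was 0.080 (adjusted p = 0.72).

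Add1, the alpha adducin that caps actin filaments and recruits spectrin to them, was the member closest to 0. Its values ran from -0.25 on lens455 to 0.45 on lens250, with the other 4 arrays between -0.045 and 0.065. The difference was 0.050 ± 0.23 (95% interval -0.17 to 0.27; adjusted p = 0.85 in limma), and without lens250 its sign turned, to -0.048. No member had a dye effect past the threshold (0 of 6 in limma, 0 at an unadjusted p under 0.05, smallest unadjusted p = 0.21). Of all 19624 features 0 had a dye effect past the threshold, and 2476 had an unadjusted p under 0.05 in limma. With 6 members, a count of 0 is thus near the background.

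**Figure D3:**
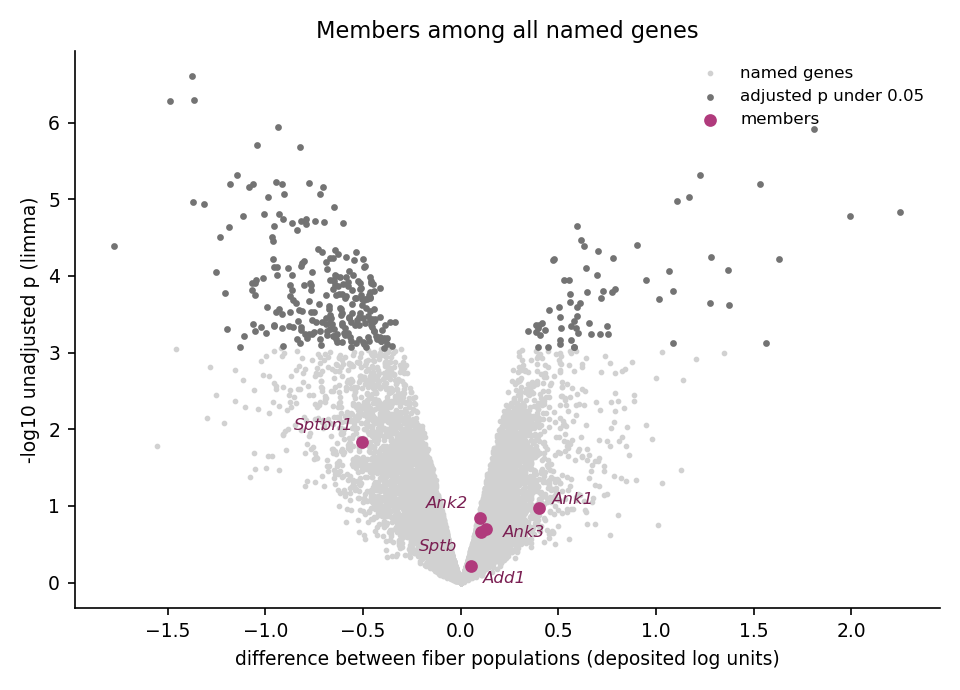
Difference between fiber populations (deposited log units, horizontal axis) against minus log10 of the unadjusted limma p (vertical axis) for all named genes; dark grey points have an adjusted p under 0.05 and coloured points are the 6 members. Sptbn1 lies at -0.51 below the dark points, and the other 5 members lie on the positive side.

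The members were then compared with each other within each array, which asks whether their ratios differed. In order of their mean differences they ran Sptbn1, Add1, Ank2, Sptb, Ank3 and Ank1. Sptbn1 lay below Sptb on all 6 arrays, by 0.22 to 0.99 and 0.61 ± 0.30 on average. It also lay below Ank1 (by 0.91 ± 0.60 on average), Ank2 (0.61 ± 0.50) and Ank3 (0.64 ± 0.48) on all 6 arrays. Each of these 4 comparisons reached p = 0.0312 in an exact sign-flip permutation test, the smallest that 6 arrays allow, which became adjusted p = 0.12 over the 15 pairs of members. The 4 share the same Sptbn1 values, and the test takes the 6 arrays as independent, which the labels do not state. Against Add1, Sptbn1 was lower on 5 of 6 arrays (0.56 ± 0.52 on average; exact permutation p = 0.0625, adjusted p = 0.19).

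Among the other 5 members no neighbours in this order could be told apart. Their 10 pairs differed by 0.0053 to 0.35 on average, with exact permutation p from 0.375 to 0.97 before adjustment. The within-array differences between Ank2 and Add1 ran from -0.22 to 0.32, those between Sptb and Ank2 from -0.38 to 0.46 and those between Ank1 and Ank3 from -0.12 to 1.43. The widest were those between Ank1 and Add1, from -0.36 to 2.03.

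**Figure D4:**
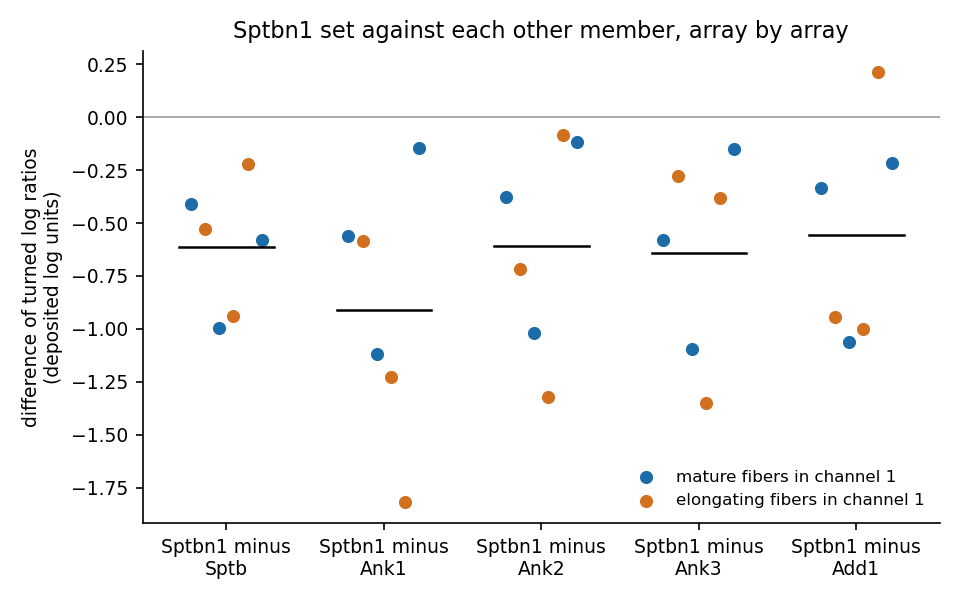
Difference between the turned log ratio of Sptbn1 and that of each other member on the same array (deposited log units, vertical axis); each point is 1 array, coloured by the population in channel 1, and the bar is the mean of 6 arrays. All points lie below 0 except 1 against Add1, at 0.21.

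Genes whose 6 ratios lay nearest to those of Sptbn1, by Euclidean distance over the 6 arrays among named genes, were Acadm (distance 0.24), a mitochondrial acyl-CoA dehydrogenase, Ptbp2 (0.28), a splicing regulator, and Cdc7 (0.35), a kinase of replication origins. Their mean differences were -0.57, -0.47 and -0.63. Because they were chosen for this closeness, they were also lowest on lens487 and lens488 and closest to 0 on lens455. None of the 3 passed the test (adjusted p from 0.13 to 0.16 in limma).

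The relatives of the members were described from a list of 25 genes of spectrins, adducins, Epb41-like proteins, tropomodulins, tropomyosins and red cell skeleton proteins. Of these 21 were measured and limma called 0, while 1 had an unadjusted p under 0.05, against 16.2% of all features. That gene was Add3, the gamma adducin, at 0.49 ± 0.50 and above 0 on 5 of 6 arrays (adjusted p = 0.17). Tmod1, the tropomodulin that caps actin in the lens fiber skeleton, had 0.30 ± 0.44 (adjusted p = 0.37). The median over the list was 0.039, and 12 of 21 members of it were above 0.

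**Figure D5:**
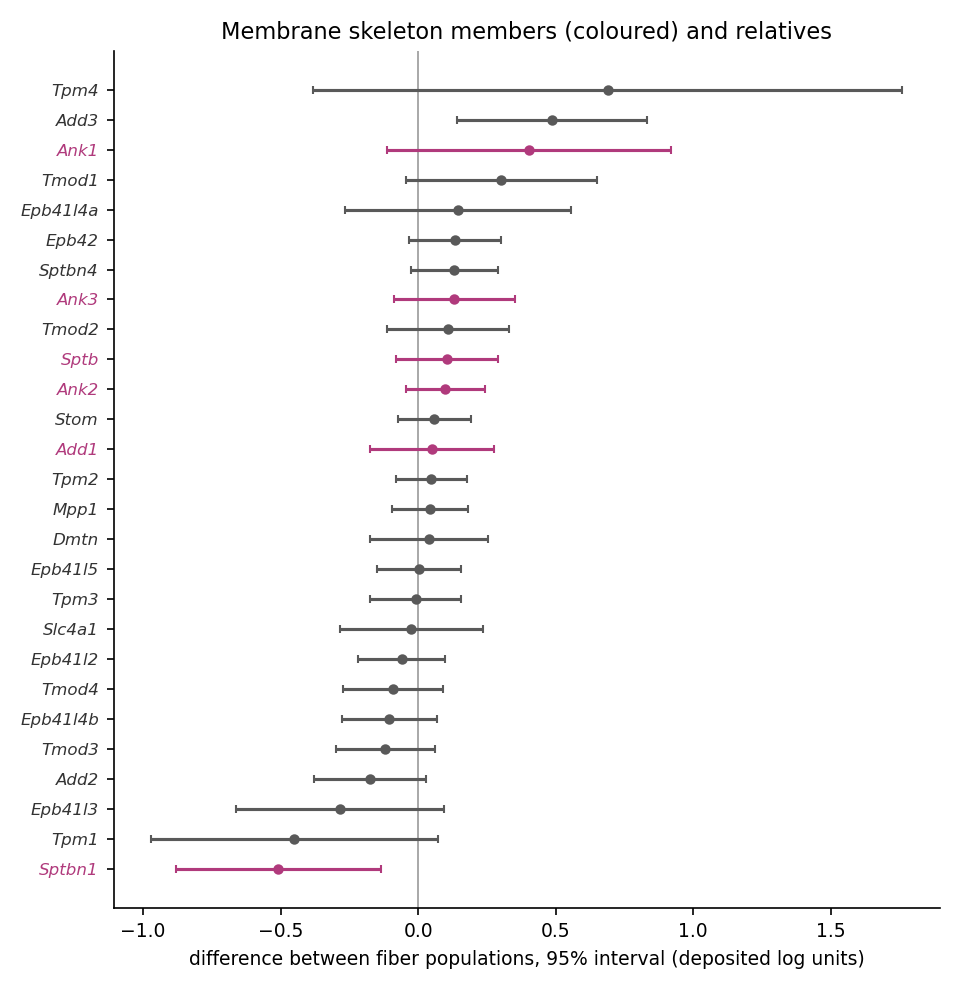
Difference between fiber populations with its 95% interval from limma (deposited log units, horizontal axis) for the 6 members (coloured) and 21 relatives (grey), ordered by size. Sptbn1 at -0.51 is the lowest of the 27, and the intervals of all but Sptbn1 and Add3 include 0.

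Membrane proteins and adhesion molecules that ankyrin and spectrin hold were counted next. Of 32 listed partners 25 were measured, and 1 passed, Cdh2, on the negative side (adjusted p = 0.016 in limma). Atp1b3, a beta subunit of the sodium pump, had -0.51 ± 0.25 and was below 0 on all 6 arrays (adjusted p = 0.065). At an unadjusted p under 0.05 there were 9 of the 25 with values below 0 and 3 above, against 16.2% of all features, and the list's median was -0.050. The 3 above were the sodium pump subunit Atp1b2 and the calcium release channels Itpr2 and Itpr3, at 0.16 to 0.25. The Cdh2 call was lost without lens488 (adjusted p = 0.065), lens493 (0.052) or lens455 (0.052). It was also lost with a trend and robust variance prior (0.27) and on 3 averaged pairs of arrays (0.25). On each orientation alone it was lost too (0.18 and 0.20), and 0 features passed in any of these last settings.

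Of 16 genes of the fiber cell cortex, which holds the beaded filament, connexins and actin linkers, 14 were measured. Ezr, which encodes ezrin, a linker of membrane and actin, passed on the negative side at -1.04 ± 0.15 (adjusted p = 0.0058 in limma), also without any 1 array. The Ezr call was lost with a trend and robust variance prior (adjusted p = 0.27), on 3 averaged pairs of arrays (0.25) and on each orientation alone (0.16 and 0.20), settings in which 0 features passed. Actg1, cytoplasmic gamma actin, had -0.36 ± 0.18 (adjusted p = 0.065). At an unadjusted p under 0.05 the cortex list had 4 of 14 below 0 and 1 above, against 16.2% of all features, and its median was -0.027. The 1 above was Bfsp2, a beaded filament protein, at 0.53 ± 0.46 (adjusted p = 0.18). Of 13 proteases and regulators of the calpain and caspase systems, which cleave spectrin, 11 were measured. Capn6, a calpain without protease activity, passed on the positive side (0.51 ± 0.22, adjusted p = 0.044), and Capn15 had 0.34 ± 0.13 (adjusted p = 0.069). At an unadjusted p under 0.05 the list had 2 of 11 above 0, these 2, and 2 below, against 16.2% of all features on either side. The 2 below were Capn10, a calpain, at -0.27 ± 0.19 (adjusted p = 0.16) and Cast, the calpain inhibitor calpastatin, at -0.29 ± 0.30 (adjusted p = 0.28). The list's median was -0.050. The Capn6 call was lost on leaving out any 1 array (adjusted p from 0.068 to 0.15).

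Because Sptb and Ank1 are also red cell genes, erythroid markers were read beside them. Of 20 listed 14 were measured and limma called 0. At an unadjusted p under 0.05 there were 3, all positive, against 16.2% of all features on either side and 1428 of 19624 above 0. The median was -0.0055. Ermap, a red cell surface protein, had 0.81 ± 0.71 (adjusted p = 0.18) and Kel, a red cell antigen, 0.31 ± 0.44 (adjusted p = 0.20). The third was Hbb-bh1, an embryonic beta-like globin, at 0.18 ± 0.21 and above 0 on 5 of 6 arrays (adjusted p = 0.28). The Kel mean was -0.023 with mature fibers in channel 1 and 0.645 with elongating fibers there. Its dye term was -0.33 (unadjusted p = 0.013, adjusted p = 0.29 in limma). The 14 measured markers ran from -0.14 to 0.81, with 7 above 0 and 7 below. On lens455, where Ank1 had 1.78, Ermap had -0.17, Kel 0.72 and Hbb-bh1 -0.12. Over the 14 measured markers the values on that array ran from -0.55 to 0.72, on both sides of 0.

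Of 15 lens epithelium markers, all measured, 2 passed, both on the negative side, against 1.73% of all features. Most calls over all features lay on that side too, 266 against 73 on the positive side. They were Col4a1, a basement membrane collagen, at -0.95 ± 0.38 (adjusted p = 0.030 in limma) and Itga6, a laminin receptor subunit, at -0.69 ± 0.30 (adjusted p = 0.041). At an unadjusted p under 0.05 there were 7 of the 15 with values below 0 and 2 above, against 16.2% of all features. The 2 above were Aqp1, a water channel, at 0.57 ± 0.39 (adjusted p = 0.086) and Lama1, a laminin chain, at 0.23 ± 0.20 (adjusted p = 0.26). The list ran from -1.01 to 0.57 with a median of -0.025, and 6 of 15 lay above 0. Foxe3, Pdgfra, Cdh1 and Gja1, also listed, lay between -0.025 and 0.11 (adjusted p from 0.46 to 0.95 in limma). The Itga6 call was lost without any 1 array (adjusted p from 0.0502 to 0.14), and the Col4a1 call held only without lens249 (0.038) and was lost without each of the other arrays (up to 0.12). Of 18 retina and neuron markers 17 were measured and limma called 0. At an unadjusted p under 0.05 there were 3, all positive, against 16.2% of all features on either side and 1428 of 19624 above 0. The median was 0.050. Rpe65 of the pigment epithelium had 0.20 ± 0.27 and Map2 of neurons 0.32 ± 0.33 (adjusted p = 0.19 each), and the third was Tubb3, a neuronal tubulin, at 0.44 ± 0.44 (adjusted p = 0.25). The Rpe65 mean was 0.43 with mature fibers in channel 1 and -0.023 with elongating fibers there. Its dye term was 0.225 (unadjusted p = 0.0092, adjusted p = 0.27 in limma). The part of such cells in the members' ratios was not tested.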

How the data were processed

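The deposited values are a score, the authors' log ratio of both channels, for 22575 probes per array (0 values missing). No source used here gives the log base, numerator, background correction or normalization, so the deposited units were kept. Symbols came from the platform annotation: 18218 probes had 1 symbol, 16 several and 4341 none, and 18175 matched the RefSeq gene table (GRCm38.p6) by gene ID. Sets of at least 49 identical unlisted probes (10 sets, 1032 probes) were removed as probable controls. Of other rows with identical values and the same symbol, or without a single symbol, 1 was kept. Arrays were centred on their median, turned in sign, and probes of a gene averaged, giving 19624 features. R 4.3.3 with limma 3.58.1 (lmFit, eBayes, two-sided) fitted a population term and a dye term per feature; it was tested on simulated data. Within-array differences used exact sign flips. No spot signals were used here, so the number of arrays limits the precision. Errors are SDs over 6 arrays, which include the dye effect that the fit separates. Promoter windows are RefSeq's. Named were all members, and of each list the genes past the threshold and those with the 2 lowest p-values; Cdh2 and Dnase2b to mark the sides; for the member with the lowest p, the 3 genes nearest to it. Outside this rule, Atp1b2, Itpr2, Itpr3, Bfsp2, Capn10, Cast, Hbb-bh1, Aqp1, Lama1 and Tubb3 were named after their values were seen. So were Foxe3, Pdgfra, Cdh1 and Gja1, which were left out of the screen for single outlying arrays. Members and lists were chosen with earlier results of these data known. Alternatives changed centring, scaling, dye term, variance prior, probe averaging, kept rows and arrays. Figures used matplotlib 3.10.9.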

Additional observations from a re-analysis of the deposited data

Results flagged for a closer look

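Of 40 genes and probes screened, Ank1 was the 1 with a single array far from the other 5: it had 1.78 on lens455, where the other arrays lay between -0.022 and 0.26. Its gap to the next array was 0.84 of the range over all arrays. By chance about 1 in 20 would stand out in this way, or 2 among those tested. As genes and probes were both screened, the 40 are not independent, and this count does not measure how unusual the Ank1 value is.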

How the results depend on the processing

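No member passed the threshold in any of the 16 alternatives, with 0 to 3 members at an unadjusted p under 0.05. The count of 0 came on 3 averaged pairs of arrays. The count of 3 came without lens250, where 2895 of all 19624 features had an unadjusted p under 0.05 in limma. The Sptbn1 difference kept its sign, from -0.55 to -0.49 under alternatives other than single probes (-0.80 and -0.22) and from -0.63 to -0.38 on leaving out 1 array (adjusted p from 0.17 to 0.42 in limma). It was largest without lens455 and smallest without lens488. On leaving out 1 array Add1 ran from -0.048, its sign turned without lens250, to 0.12. The count of features past the threshold, 339, fell to between 16 and 117 on leaving out 1 array, where fewer arrays enter. With all rows kept, identical ones included, it was 243. It was 0 with a trend and robust variance prior (2398 at an unadjusted p under 0.05 in limma), 0 on 3 averaged pairs of arrays (2395), 0 with mature fibers in channel 1 alone (2609) and 0 with elongating fibers in channel 1 alone (2670). The calls of Cdh2, Ezr, Col4a1, Itga6 and Capn6 were thus lost in these settings. With the variance prior the cause was not tested, and the other 3 rest on 3 values each. The calls of Capn6 and Itga6 were also lost with arrays scaled by their spread (adjusted p = 0.057 and 0.059) and with all rows kept (0.059 and 0.058). Dye effects past the threshold numbered 0 in limma (2476 at an unadjusted p under 0.05), also without any 1 array. Of 15 pairs of members 0 passed, with 4 at an unadjusted p under 0.05; with 5 arrays the smallest exact p was 0.0625. Without signal over background, no limit of detection can be given.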
